A study of Mus musculus with 2 samples.

Results

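Stem and progenitor markers around CD133 were followed in GIF-5 cells, a line of mouse gastric epithelium. They were 10 genes, Prom1, Kit, Kitl, Cd44, Cd24a, Alcam, Lrig1, Bmi1, Msi1 and Sox9, taken as every non-control spot that carries one of these gene names. They had 18 probes in 54 spots per array, out of 41174 non-control probes, and all 10 were among the 15267 genes tested. The CD133-positive fraction and the CD133-negative fraction were both GIF-5 cells of the genotype Runx3-/- p53-/-, cultured in serum and separated by flow cytometry after staining with an antibody to CD133, so both fractions lack Runx3 and p53 by genotype. Each of 2 Agilent 2-colour arrays held CD133-positive RNA in Cy3 and CD133-negative RNA in Cy5. The labels call the arrays biological replicates 1 and 2 without saying whether the sorts were separate, so p-values measure the spread between these arrays, which may be technical. All values are from 1 cell line, and with the same dyes on both arrays a dye effect and the fraction cannot be told apart. Of the 43379 non-control spots of an array, 23694 and 23498 were well above background in CD133-positive RNA on arrays 1 and 2, against 25213 and 24648 in CD133-negative RNA, and no spot was saturated.

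CD133 is the product of Prom1, a glycoprotein with several membrane spans that sits on membrane protrusions and is widely used to isolate stem-like cells. Several of the other genes encode surface proteins used in the same way: the receptor tyrosine kinase Kit, the hyaluronan receptor CD44, the small lipid-anchored glycoprotein CD24, the immunoglobulin-family adhesion molecule ALCAM (CD166) and LRIG1, a membrane protein that restrains ErbB receptors. The rest act inside the cell: BMI1 is a subunit of Polycomb repressive complex 1, Musashi-1 (Msi1) is an RNA-binding translational regulator, and SOX9 is a transcription factor of gut progenitors. Kitl encodes stem cell factor, the ligand of Kit.

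Kit and Prom1 were the markers that passed the test, both far higher in CD133-positive cells. Of the 10 genes, 2 rose and 0 fell at a limma adjusted p under 0.05, a share to be read against 1.38% of all tested genes called higher and 0.262% called lower (1.64% in all). At an unadjusted p under 0.05, limma gave 4 higher and 2 lower, where it gave 1814 higher (11.88%) and 2438 lower (15.97%) of all tested genes. Ratios were above 0 on both arrays for 8 genes and below 0 on both for 2, as they were for 32.6% and 39.7% of all genes. Being at least 2-fold higher on both arrays held for 2 members and at least 2-fold lower for 0, against 2.50% and 2.12% of all genes. By probe, 3 of 16 passed, all higher (1.36% of all tested probes passed, 1.15% higher and 0.203% lower), and the same 3 were at least 2-fold higher on both arrays (2.05% of all, with 1.66% at least 2-fold lower). Prom1 was the gene behind the sort, so its rise checks the labels and is no finding. It passed the filter through CD133-positive cells only, and it is counted in the shares of genes and probes above. Without it, Kit is the only called gene, with its only probe. The ratio of the other 8 genes lay between -1.38 and 1.14 on the log2 scale. Msi1 was at the upper end of that range, and Cd44 and Sox9 were at the lower end. All ratios are log2 of CD133-positive over CD133-negative, after background correction with an offset of 50, which pulls the ratios of dim probes toward 0. Levels are the deposited processed signals, an intensity already corrected for background and dye. They are compared within a probe only, except in sums over lists of cell type markers, which follow the brightest genes of a list. Where fractions are said to overlap or not, signals are compared across both arrays, which sets the pairing within an array aside. That is a description, and its share over all genes was not counted. In bulk RNA, fewer cells of a type and less RNA per cell cannot be told apart.

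**Figure D1:**
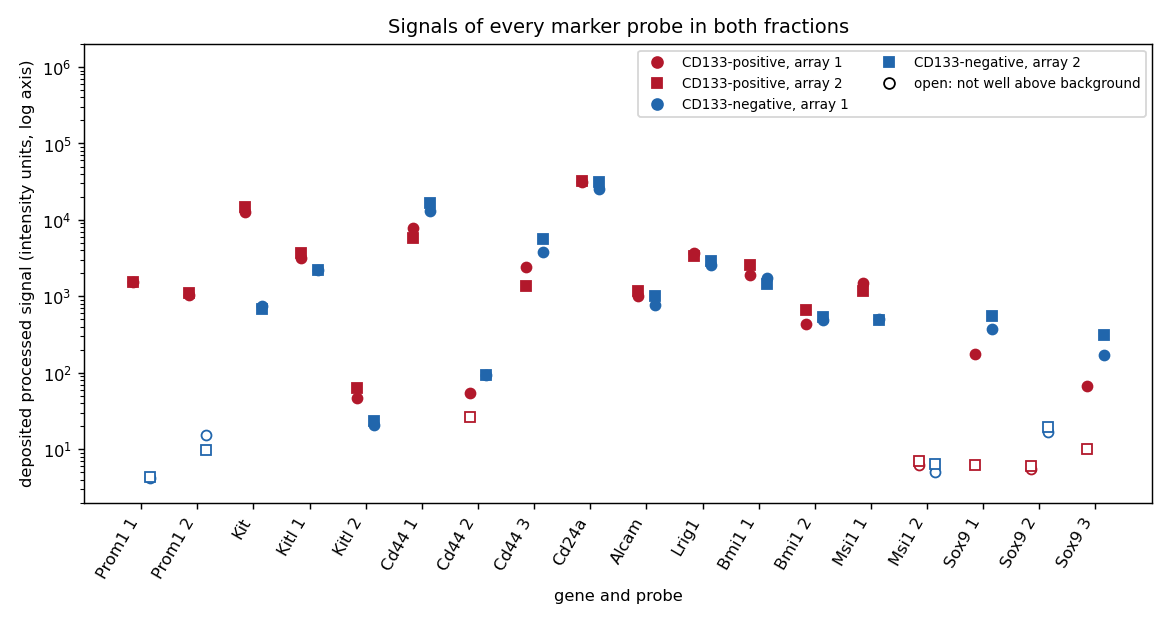
Deposited processed signal (intensity units, log axis) of each of the 18 probes; circles are array 1, squares array 2, red CD133-positive and blue CD133-negative cells, and open symbols mark signals not well above background. Numbers after a gene name count its probes, the one that stands for the gene first. The fractions lie far apart for both Prom1 probes and for Kit, at 12852 and 14883 in CD133-positive against 744 and 679 in CD133-negative cells.

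The regions just before the starts of Prom1 and Kit are shown because these genes rose together. They are 250 bases each, read 5′ to 3′ along the gene from the RefSeq promoter table of GRCm38.p6, which held 7 of the 10 genes in 9 windows. Capitals mark every match, on either strand, to 7 short motifs, of which 1 is the CCAAT box. The TATA box is written TATAAA, the GC box of promoters is written GGGCGG, and the E-box is written CACGTG. The core bound by Sox proteins is written AACAAT. The Runx pattern is written TGNGGT and the AP-1 pattern is written TGANTCA, where N is any base. Both are looser than the cores that Runx and AP-1 proteins bind, so a match need not hold such a core. None of the matches in the windows printed overlap. Prom1 has starts far apart, and the window of each is given.
Prom1 distal start, chr5:44101737-44101986, minus strand: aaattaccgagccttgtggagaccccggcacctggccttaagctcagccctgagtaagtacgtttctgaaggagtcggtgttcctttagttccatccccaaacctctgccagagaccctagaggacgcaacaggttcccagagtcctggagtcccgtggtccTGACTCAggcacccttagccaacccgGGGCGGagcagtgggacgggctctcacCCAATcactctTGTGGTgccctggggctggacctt
Prom1 internal start, chr5:44094769-44095018, minus strand: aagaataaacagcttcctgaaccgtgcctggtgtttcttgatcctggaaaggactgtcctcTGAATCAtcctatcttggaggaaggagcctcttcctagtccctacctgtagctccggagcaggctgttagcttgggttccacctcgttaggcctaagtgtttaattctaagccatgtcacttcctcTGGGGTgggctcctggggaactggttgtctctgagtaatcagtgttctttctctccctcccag
Kit, chr5:75574737-75574986, plus strand: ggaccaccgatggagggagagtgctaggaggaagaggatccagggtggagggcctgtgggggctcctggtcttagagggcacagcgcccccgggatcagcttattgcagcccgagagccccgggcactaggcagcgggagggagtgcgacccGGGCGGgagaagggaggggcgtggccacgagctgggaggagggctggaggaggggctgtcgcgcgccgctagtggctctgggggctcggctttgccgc
The distal Prom1 window held 4 matches: a CCAAT box, a GC box, the Runx pattern as TGTGGT and the AP-1 pattern as TGACTCA. The internal window held the Runx pattern as TGGGGT and the AP-1 pattern as TGAATCA, and that of Kit held a GC box alone. Over all 32851 windows of the table, 40.1% held the Runx pattern, 33.8% the CCAAT box, 32.7% the GC box and 6.75% the AP-1 pattern. Among the other markers, Lrig1 held the Runx pattern, as ACCTCA from the opposite strand, and a Sox core, which 9.42% of all windows had. Kitl held a TATA box (12.4% of all windows) and Bmi1 an E-box (6.02%). Cd44 held none of the 7 motifs in its window. These are matches of letters, not binding sites.

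Prom1 had 1545 and 1553 intensity units on its first probe in CD133-positive cells, against 4.22 and 4.40 in CD133-negative cells, on arrays 1 and 2. That probe lies at chr5:43314657-43314716 on the minus strand in the coordinates of the files, whose build is not given in the sources used here. Its second probe, at chr5:43326736-43326795, had 1050 and 1108 in CD133-positive cells, against 15.4 and 9.77 in CD133-negative cells. Both probes stood well above background on both arrays in CD133-positive cells, and on neither in CD133-negative cells, so the fractions did not overlap and the ratio is a lower bound. Where CD133-negative cells gave no usable signal, the dimmest signal well above background stood in for theirs, or the probe's own if higher. On that basis the log2 ratio was at least 3.58 for the first probe and at least 3.02 for the second, which is at least 8.09-fold higher in CD133-positive cells. The fitted ratio of Prom1 was 3.78 ± 0.14 (moderated SE, n = 2 arrays), from 3.83 and 3.73 on the single arrays (limma adjusted p = 0.0097). Its size moves with the offset, since CD133-negative cells gave no usable signal, and the bounds above are what the data give.

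Kit was the called member that was measured in both fractions. Its only probe, at chr5:75074515-75074574 on the plus strand in the files' coordinates, was spotted 10 times per array. The mean was 12852 and 14883 in CD133-positive cells, against 744 and 679 in CD133-negative cells. All were well above background, so Kit was measured in CD133-negative cells too, at a lower level. Its 10 spots gave ratios of 3.79 to 3.96 on array 1, and 4.03 to 4.21 was their span on array 2, with a spot SD of 0.05 on each. No spot of the CD133-negative fraction, at most 774, came near the lowest spot of the CD133-positive fraction, at 11878. The fitted ratio was 4.01 ± 0.15 (moderated SE, n = 2), a 16.2-fold difference with a 95% interval of 3.60 to 4.43 on the log2 scale (limma adjusted p = 0.0097). 

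Kit also marks mast cells, melanocytes, blood progenitors and interstitial cells of Cajal, so their markers were read beside it. Of 12 mast cell markers, 7 gave no signal well above background, the mast cell genes Cpa3, Tpsb2, Tpsab1, Fcer1a and Ms4a2 among them. The 4 tested went both ways and 0 were called, against 1.64% of all genes. Srgn was at 73.7 and 170 in CD133-positive cells, against 4.47 and 8.07 in CD133-negative cells, not well above background there. Gata2 (-0.87), Mcpt2 (-0.69) and Mcpt4 (-0.17) were below 0 on both arrays. The summed signal of the mast cell list was 212 and 289 in CD133-positive cells, against 337 and 772 in CD133-negative cells. Among 7 melanocyte markers, Tyr, Tyrp1, Mitf and Sox10 were not well above background anywhere. Dct, an enzyme of melanin synthesis, was at 280 and 900 in CD133-positive cells, against 6.61 and 8.62 in CD133-negative cells, where it was not well above background. Its log2 ratio was at least 2.21 and did not pass (limma adjusted p = 0.067). A second Dct probe had a ratio of at least 1.14 and did not pass either (limma adjusted p = 0.11 over all probes). The other tested melanocyte markers were Pmel, at 0.05 on both arrays, and Mlana, at -0.07 and -0.21. Of the 3 tested, 0 were called, against 1.64% of all genes. The melanocyte list summed to 518 and 1050 in CD133-positive cells, against 252 and 189 in CD133-negative cells. Dct made up most of that sum in CD133-positive cells. Of 4 markers of interstitial cells of Cajal, Etv1, Thbs4 and Cd34 were not well above background anywhere. Ano1, the chloride channel of those cells, had a ratio of -0.22 ± 0.14. The interstitial cell list summed to 9236 and 9120 in CD133-positive cells, against 10412 and 10838 in CD133-negative cells. Nearly all of that sum was Ano1, the only tested gene of the list. The pan-leukocyte gene Ptprc was not well above background in either fraction. Of the 11 blood cell markers on the array, 5 were tested and 0 were called, against 1.64% of all genes. Csf1r, at -0.87 ± 0.14, was below 0 on both arrays (limma adjusted p = 0.078), and 2 of the tested were above 0 on both. The 11 markers summed to 610 and 400 in CD133-positive cells, against 665 and 584 in CD133-negative cells.

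Endothelial markers moved with Kit and Prom1 in part. Von Willebrand factor, Vwf, was at 3637 and 5676 in CD133-positive cells, against 175 and 237 in CD133-negative cells, a ratio of 3.75 ± 0.15 (limma adjusted p = 0.012). Cdh5, the cadherin of endothelial junctions, was at 565 and 1302 in CD133-positive cells, against 4.47 and 5.98 in CD133-negative cells. CD133-negative cells gave no signal well above background, and its ratio was at least 2.54 on the log2 scale (limma adjusted p = 0.043). A second Cdh5 probe had a ratio of at least 1.23 and did not pass (limma adjusted p = 0.071 over all probes). The list summed to 4243 and 7028 in CD133-positive cells, against 216 and 309 in CD133-negative cells. Vwf and Cdh5 were the 2 tested of 7 endothelial markers, and both were called higher, against 1.38% of all genes. Cdh5 was tested through its signal in CD133-positive cells only, so it could hardly have come out lower. That count is therefore not read as a rise of endothelial markers. The other 5, Pecam1, Kdr, Tek, Tie1 and Emcn, gave no signal well above background anywhere. What part these genes have in the results on Kit was not tested. Of the 12 genes of the fibroblast and muscle list, 5 were tested and 0 were called, against 1.64% of all genes. This list summed to 73307 and 61773 in CD133-positive cells, against 133351 and 184176 in CD133-negative cells. Most of that sum was the intermediate filament gene Vim, at 53187 and 38893 in CD133-positive cells, against 114765 and 162145 in CD133-negative cells (-1.70 ± 0.29, limma adjusted p = 0.082). Without Vim, which was singled out after its values were seen, the list summed to 20120 and 22880 in CD133-positive cells, against 18585 and 22031 in CD133-negative cells. Gastric epithelial identity was read the same way. The keratins Krt8, Krt18 and Krt19 and the cadherin Cdh1 were well above background in both fractions, whereas Cblif, Atp4a, Gast and Sox2 were not in either. The keratins were below 0 on both arrays, with ratios of -0.78 ± 0.14 for Krt8, -0.54 ± 0.15 for Krt18 and -0.79 ± 0.15 for Krt19, and did not pass (limma adjusted p = 0.083, 0.12 and 0.086). Epcam, a general epithelial marker, gave no usable signal in CD133-positive cells. Of the 23 genes of this list, 22 were on the array and 16 were tested. The trefoil factor Tff1, the gastrokine Gkn2 and the mucin Muc1 rose, and 0 fell, against 1.38% and 0.262% of all genes. At an unadjusted p under 0.05 limma gave 8 higher and 3 lower, against 11.88% and 15.97% of all genes. Ratios were above 0 on both arrays for 12 and below 0 on both for 3, the keratins, against 32.6% and 39.7% of all genes. The median was 0.87. The list summed to 1024270 and 846584 in CD133-positive cells, against 826152 and 830164 in CD133-negative cells. The keratins made up most of that sum in both fractions.

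The ligand Kitl did not pass the test. On its repeated probe Kitl had 3144 and 3648 in CD133-positive cells, against 2207 and 2210 in CD133-negative cells. CD133-positive cells were above CD133-negative cells on both arrays, by ratios of 0.45 and 0.59. The mean was 0.52 ± 0.14 (limma adjusted p = 0.12), and its 95% interval was 0.13 to 0.92. A second, dim Kitl probe gave 46.7 and 64.3 in CD133-positive cells, against 20.8 and 23.5 in CD133-negative cells, with ratios of 0.19 and 0.27. With every array centred on its median and no loess, which moved the median of all genes to -0.75, Kitl was at -0.37, or 0.38 above that median. The 95% intervals of Kit and Kitl do not overlap. The difference between the genes was not tested.

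**Figure D2:**
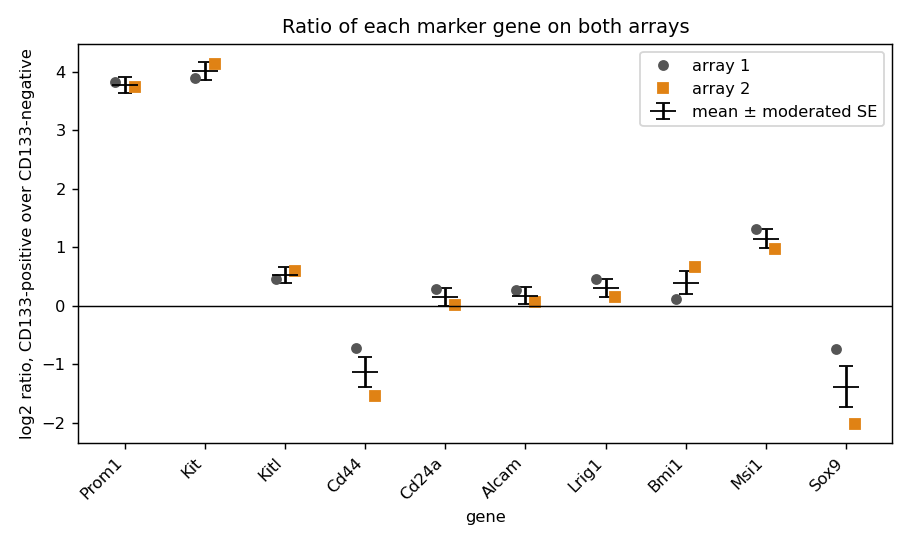
Log2 ratio of CD133-positive over CD133-negative cells for the probe that stands for each gene; circles are array 1, squares array 2, and the bar is the mean with its moderated SE. Prom1 (3.78, a fitted value that depends on the offset) and Kit (4.01) stand apart from the other 8 genes, and the arrays are furthest apart for Sox9 (-0.73 and -2.03).

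No gene of the Kit signalling list passed the test. The list held 46 adaptors, kinases, phosphatases and transcription factors, of which 40 were tested and 0 were called by limma, against 1.64% of all genes. Without adjustment, p was under 0.05 for 2 higher and 9 lower genes, against 11.88% and 15.97% of all genes. The median ratio of the list was -0.28, against -0.03 for all tested genes, and 25 members were below 0 on both arrays, where 39.7% of all genes were. The adaptor Grb10, which binds activated receptor kinases, had the lowest ratio. It was at 731 and 87.9 in CD133-positive cells, against 2028 and 2097 in CD133-negative cells. Its ratio was -2.14 ± 0.45 (limma adjusted p = 0.094), and the arrays gave -1.30 and -2.98. A second, dim Grb10 probe was at -0.19 and -0.15 (limma adjusted p = 0.47 over all probes). The lipid kinase subunit Pik3cd was at -1.66 ± 0.36 (limma adjusted p = 0.097). A second, dim Pik3cd probe was at -0.05 and -0.23 (limma adjusted p = 0.58 over all probes). On both dim probes CD133-positive cells were not well above background. The melanocyte regulator Mitf and the factor Etv1, both known to act with Kit in other lineages, were not tested because no probe was well above background.

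Cd44 had ratios below 0 on all 3 probes and both arrays. Its brightest probe was at 7883 and 5722 in CD133-positive cells, against 13111 and 16694 in CD133-negative cells. A probe spotted 10 times was at 2396 and 1388 in CD133-positive cells, against 3849 and 5717 in CD133-negative cells. The fractions did not overlap on either probe, and the distance between them was larger on array 2. The mean ratio of the brightest probe was -1.13 ± 0.25, from -0.72 and -1.55 on the single arrays, and did not pass (limma adjusted p = 0.10). The repeated probe gave -0.66 and -1.96, with a spot SD of 0.03 on each array, so the arrays differed by far more than the spots within them. The difference between the arrays on the brightest probe was larger than that of 92.1% of tested genes. With median centring the ratio was -2.11 and passed (limma adjusted p = 0.0071), at -1.37 relative to the median of all genes. Another, dim probe was at 55.2 and 26.5 in CD133-positive cells, against 95.3 and 95.1 in CD133-negative cells. Of these signals the 26.5 was not well above background. The files list 2 RefSeq transcripts for that probe and 3 for the others.

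Genes of CD44 and hyaluronan biology had 1 member that fell and none that rose, of 17 tested among 24. Of all genes, 0.262% were called lower and 1.38% higher. At an unadjusted p under 0.05 limma gave 7 lower and 0 higher, against 15.97% and 11.88% of all genes. Mmp14, a membrane-anchored metalloproteinase that cleaves CD44, was at 7652 and 6104 in CD133-positive cells, against 20867 and 18139 in CD133-negative cells. It fell, with ratios of -1.42 and -1.59 on the single arrays and a moderated SE of the mean of 0.14 (limma adjusted p = 0.043). Its second probe was at -1.07 and -1.28. Spp1, the secreted CD44 ligand osteopontin, was at 11689 and 2671 in CD133-positive cells, against 55640 and 92320 in CD133-negative cells. The fractions did not overlap and the arrays were far apart, at -2.22 and -4.95, and Spp1 did not pass (limma adjusted p = 0.088). Ankrd1, a nuclear ankyrin-repeat protein, was at -2.24 ± 0.26 (limma adjusted p = 0.056). The list median was -0.20, and 10 members were below and 3 above 0 on both arrays, against 39.7% and 32.6% of all genes. The call of Mmp14 was lost with the deposited processed signals or the value table, against a fold of 0.5 on the log2 scale, without a filter on dim probes and with the dimmest probe of each gene.

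**Figure D3:**
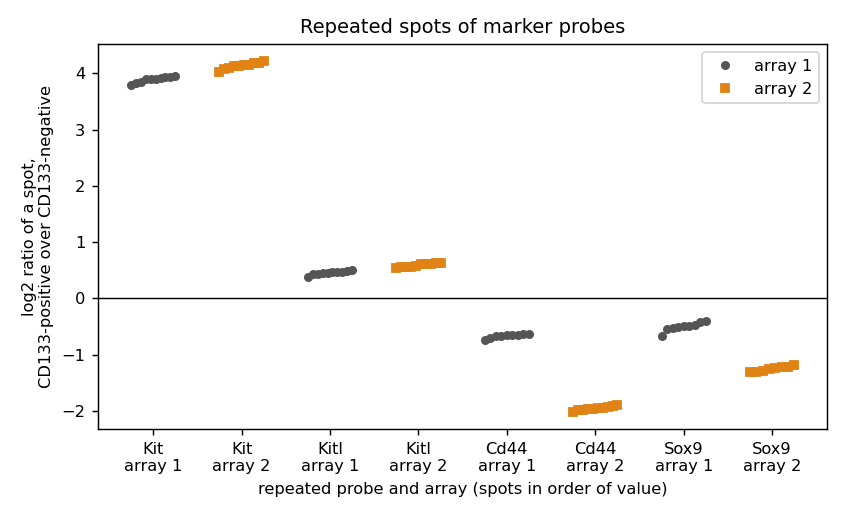
Log2 ratio of CD133-positive over CD133-negative cells of single spots of the 4 marker probes that are spotted 10 times on each array, without spots marked as outliers; circles are array 1 and squares array 2. Spots of an array lie close together, and the arrays separate for Cd44 (medians -0.66 and -1.96) and Sox9 (medians -0.50 and -1.25).

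The surface antigens Cd24a and Alcam and the ErbB regulator Lrig1 did not pass the test. Cd24a had 30954 and 32010 in CD133-positive cells, against 25257 and 31473 in CD133-negative cells. Its ratio was 0.15 ± 0.15, with a 95% interval of -0.28 to 0.58 (limma adjusted p = 0.59). Within each array CD133-positive cells were above CD133-negative cells, with ratios of 0.29 and 0.01. The fractions overlapped only across arrays, since CD133-negative cells of array 2 lay above CD133-positive cells of array 1. Alcam had 1011 and 1185 in CD133-positive cells, against 774 and 1016 in CD133-negative cells, also with an overlap across arrays only. Single arrays gave it ratios of 0.27 and 0.06. Its ratio was 0.17 ± 0.15 and its interval -0.24 to 0.58 (limma adjusted p = 0.53). Lrig1 had 3712 and 3363 in CD133-positive cells, against 2612 and 2887 in CD133-negative cells. The fractions did not overlap, but the ratio of 0.30 ± 0.16 had an interval of -0.14 to 0.75 (limma adjusted p = 0.30). All 3 intervals lie within a 2-fold difference in either direction. The sign of all 3 turned with median centring, where they passed as lower at -0.97 for Cd24a, -0.61 for Alcam and -0.60 for Lrig1. Relative to the median of all genes there, they were at -0.22, 0.14 and 0.14.

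Lrig3, a relative of Lrig1, had the highest ratio of the other stem and progenitor genes. It was at 6006 and 7583 in CD133-positive cells, against 194 and 851 in CD133-negative cells, with no overlap. Its ratio was 3.62 ± 0.38 and just missed the threshold (limma adjusted p = 0.0502); array 1 gave 4.33 and array 2 gave 2.92. Lrig2, also of that family, was at 1749 and 1576 in CD133-positive cells, against 2391 and 2284 in CD133-negative cells, with a ratio of -0.49 ± 0.14 (limma adjusted p = 0.13). Besides median centring, 6 of the other settings called Lrig3: an offset of 16, no background correction, scaling between arrays, an intensity trend, both channels above background and the mean over probes.

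The other stem and progenitor genes were 45, of which 29 were tested and 0 were called by limma, against 1.64% of all genes. Without adjustment, p was under 0.05 for 3 higher and 7 lower genes, against 11.88% and 15.97% of all genes. Their median ratio was -0.23, and 8 were above and 14 below 0 on both arrays, against 32.6% and 39.7% of all genes. Lgr6, an R-spondin receptor, was at 203 and 62.4 in CD133-positive cells, against 305 and 380 in CD133-negative cells (-0.84 ± 0.25, limma adjusted p = 0.14). The drug efflux pump Abcg2, used to define side populations, was at 7335 and 13813 in CD133-positive cells, against 5254 and 6123 in CD133-negative cells (0.81 ± 0.22, limma adjusted p = 0.12). Of the list, 13 genes gave no signal well above background, among them the pluripotency genes Sox2, Pou5f1 and Lin28a and the intestinal stem cell genes Olfm4, Smoc2 and Axin2. Prom2, the paralogue of Prom1, was also among them. Its signals were 5.54 and 6.26 in CD133-positive cells and 4.62 and 5.67 in CD133-negative cells.

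**Figure D4:**
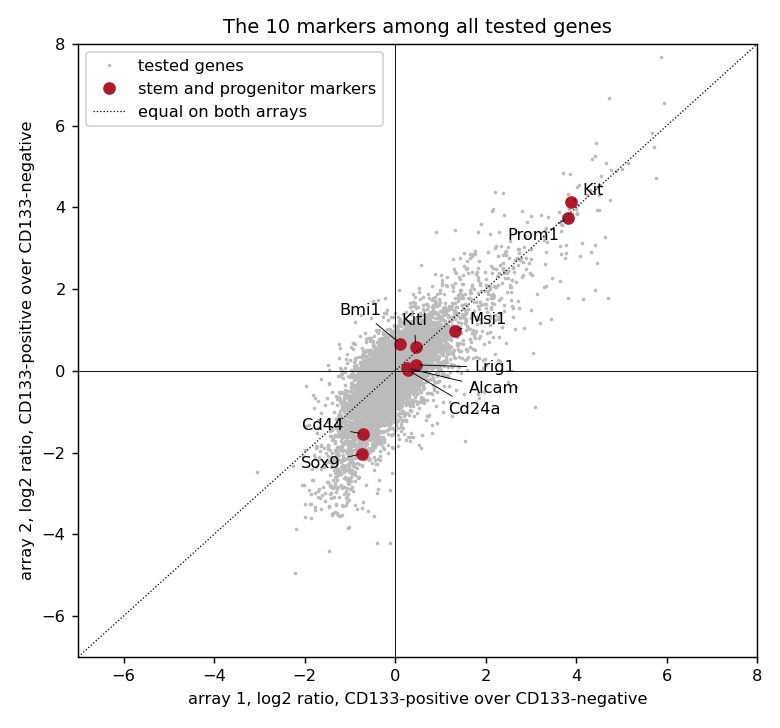
Log2 ratio of CD133-positive over CD133-negative cells on array 1 (x axis) and array 2 (y axis) for the 15267 tested genes (grey), with the 10 markers in red and a dotted line where both arrays are equal. Kit and Prom1 lie near that line at the high end, and Cd44 and Sox9 lie below it.

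Bmi1 had 1900 and 2552 on its first probe in CD133-positive cells, against 1745 and 1456 in CD133-negative cells. The ratio was 0.11 on array 1 and 0.67 on array 2, with a mean of 0.39 ± 0.20 (limma adjusted p = 0.29). The second probe was at 434 and 671 in CD133-positive cells, against 489 and 541 in CD133-negative cells, with -0.18 on array 1 and 0.10 on array 2. The probes thus gave mean ratios of opposite sign, 0.39 and -0.04, and no direction can be given for Bmi1, which was also below 0, at -0.46, with median centring. The Polycomb list held partner genes of the complexes and the cell cycle inhibitor genes Cdkn2a and Cdkn2b. It gave no call either, 0 of 31 tested in limma, against 1.64% of all genes. At an unadjusted p under 0.05 limma gave 3 higher and 4 lower in this list, against 11.88% and 15.97% of all genes. Cdkn2a was among the 4 lower. The list median was -0.13. Cdkn2a, the cell cycle inhibitor locus that BMI1 is known to repress, was at 5697 and 4064 in CD133-positive cells, against 8687 and 10759 in CD133-negative cells. Its ratios of -0.59 and -1.41 did not pass (limma adjusted p = 0.11). Yaf2, a subunit of a variant complex, was at -0.99 ± 0.18 (limma adjusted p = 0.083), and Phf19, a cofactor of Polycomb repressive complex 2, was at 0.99 ± 0.20 (limma adjusted p = 0.089).

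Msi1 had 1477 and 1185 in CD133-positive cells, against 511 and 485 in CD133-negative cells. The fractions did not overlap, with ratios of 1.31 on array 1 and 0.97 on array 2. The mean of 1.14 ± 0.16, a 2.21-fold difference with a 95% interval of 0.69 to 1.59, did not pass (limma adjusted p = 0.067). With an offset of 16 in place of 50 it passed, at 1.29 (limma adjusted p = 0.049). A second Msi1 probe, annotated to another transcript, was not well above background anywhere and was not tested. The paralogue Msi2 had a ratio of 0.20 ± 0.14 (limma adjusted p = 0.40).

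Sox9 was dim and differed most between the arrays. On the probe that stands for it, CD133-positive cells had 176 on array 1 and 6.27 on array 2, the last not well above background. CD133-negative cells had 375 and 556. The repeated probe had 68.1 and 10.1 in CD133-positive cells, against 171 and 313 in CD133-negative cells. Another probe was not well above background anywhere. The fractions did not overlap on the first probe, with ratios of -0.73 and -2.03. The mean of -1.38 ± 0.36 did not pass (limma adjusted p = 0.12), and the array difference was larger than that of 97.7% of tested genes. Since CD133-positive cells were measured on 1 array only, the size on array 2 is uncertain. With median centring the ratio was -1.89 and passed (limma adjusted p = 0.0098), at -1.14 relative to the median of all genes. On array 2, 7.91% of all tested genes were at least 2-fold lower, against 2.67% on array 1.

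Sox17, a transcription factor of endoderm and endothelium, was the Sox gene that rose, the 1 call among 10 tested of 19. Of all genes, 1.38% were called higher and 1.64% in all. It was at 17899 and 24391 in CD133-positive cells, against 832 and 1061 in CD133-negative cells. The fractions were far apart, at a ratio of 4.27 ± 0.14, 19.3-fold (limma adjusted p = 0.0097). A second probe gave 15992 and 22513 in CD133-positive cells, against 273 and 374 in CD133-negative cells, and a ratio of 5.38 (limma adjusted p = 0.0088 over all probes). Another, dim probe had a ratio of at least 0.81, with CD133-negative cells not well above background, and the call was lost when the dimmest tested probe stood for each gene. Sox13 was at 312 and 281 in CD133-positive cells, against 39.1 and 31.6 in CD133-negative cells (1.20 ± 0.14, limma adjusted p = 0.058). Sox4 was at 3253 and 3380 in CD133-positive cells, against 5201 and 4352 in CD133-negative cells (-0.56 ± 0.15, limma adjusted p = 0.12). The median over the Sox genes tested was -0.02.

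**Figure D5:**
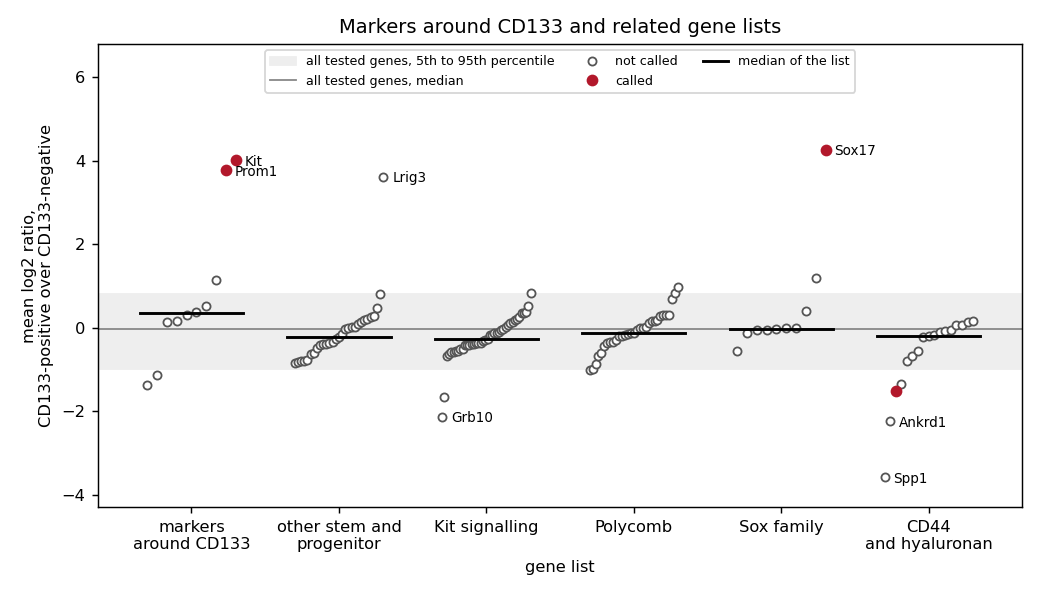
Mean log2 ratio of CD133-positive over CD133-negative cells for the 10 markers and the tested genes of 5 related lists; filled points passed the limma threshold, black bars are list medians, and the grey band and line are the 5th to 95th percentile and the median of all tested genes. The list medians run from -0.28 to 0.35, and Sox17 (4.27), Kit and Prom1 are the called genes above the band.

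The genes with ratios most like those of Kit were named by their distance over both arrays, with no members counted. None are named for Prom1, whose ratio is a lower bound. Nearest to Kit were the adenosine receptor Adora1 (3.97 and 4.17), Bex4 (4.04 and 4.06), the synaptic scaffold gene Homer2 (3.85 and 3.95), a transcript with no symbol (mean 3.98) and the inflammatory caspase Casp4 (3.82 and 4.33). Likeness over 2 arrays is a description of these ratios.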

How the data were processed

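The authors' Agilent Feature Extraction 9.5.3.1 files hold 45018 spots per array. Spot and background brightness are given there as unnormalised intensity, and the processed intensity is background-subtracted and dye-normalised, per the file headers. As deposited, each log10 ratio is Cy5 over Cy3, and the value table repeats it in all 45018 spots of each array. The deposited p-value of a spot, from the error model of the program per the file headers, was not used. Both arrays share 1 scan time.

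Intensities were corrected by normexp (offset 50) and loess within arrays with control spots at weight 0. Outlier spots were left out and spots of a probe averaged. A probe was tested if well above background in 1 colour on both arrays. Names came from accessions (22951 probes), symbols or synonyms (9768) in a RefSeq table of GRCm38.p6, or the files (8455). The brightest tested probe stood for a gene. Log2 ratios, computed from the deposited intensities, went into limma 3.58.1 under R 4.3.3 (lmFit, eBayes; 1 residual and 2.86 prior degrees of freedom), two-sided, with Benjamini-Hochberg adjustment over 15267 genes and a threshold of 0.05. The number of arrays limits the precision. The fit was tested on simulated data.

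The members and lists were chosen with earlier results of these data known. Named from each list were the called genes and, where fewer than 3, up to 3 genes, those furthest from 0 whose arrays had the same sign, and the 5 genes nearest to Kit; those nearest to Prom1, also in the rule, are not used because its ratio is a bound. Genes outside this rule were named after their values were seen. They are Lrig2, Msi2, Prom2, Vim, Pmel, Mlana, Csf1r, Cdkn2b, the tested mast cell genes and the genes listed as not detected. Bounds used levels after loess and Aquantile per channel. A gene that this rule names in the Kit signalling list is not reported here.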

Additional observations from a re-analysis of the deposited data

How the results depend on the processing

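The analysis is paired by design, because each array holds both fractions and gives 1 ratio per gene, so there is 1 group of ratios. Under the 14 other settings the count of called markers was 2 or 3, except 1 where both channels had to be above background (Prom1 could not be tested), 1 without a filter (Kit at an adjusted p = 0.05002) and 7 with median centring over all probes, which moved the median of all genes to -0.75. With that centring Cd44 and Sox9 passed, and Kitl (-0.37), Cd24a (-0.97), Alcam (-0.61), Lrig1 (-0.60) and Bmi1 (-0.46) turned below 0. Relative to the median of all genes there they were at 0.38, -0.22, 0.14, 0.14 and 0.29. Bmi1 was also below 0 with the dimmest probe, at -0.040. The fitted ratio of Prom1, with no usable CD133-negative signal, ran from 3.03 to 8.49 over the settings and is no size, and that of Kit from 3.11 to 4.28, both above 0 in each. With 1 array left out there is no test; no marker changed sign, and ratios ran from -0.73 to -2.03 for Sox9.

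Median centring also gave 22 other stem and progenitor genes, 35 Kit signalling, 25 Polycomb, 5 Sox and 14 CD44 list calls. The other stem list had 1 call, Lrig3, in place of 0 with an offset of 16, no background correction, scaling between arrays, an intensity trend, both channels above background and the mean over probes. The Sox list had 2 calls in place of 1 with the first 4 of these, 3 with the processed signals or the value table and 0 with the dimmest probe. The CD44 list had 3 with an offset of 16, scaling or an intensity trend, 2 without background correction or with both channels above background, and 0 with treat, no filter or the dimmest probe. Over all genes, 251 were called (84.1% higher), and from 29 without a filter to 10148 with median centring (4.76% higher) under the others. Higher calls were 71.8% of 563 with an offset of 16, 71.5% of 383 without background correction, 58.8% of 629 with scaling and 60.2% of 820 with an intensity trend. Dim signals limit Sox9 and the second probes of Kitl, Cd44 and Msi1.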

Other observations

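Several genes around CD133 were seen on 1 array only or with opposite signs. Lgr5, the intestinal and pyloric stem cell receptor, had 46.5 and 5.82 in CD133-positive cells, against 6.03 and 5.38 in CD133-negative cells, and was well above background in CD133-positive cells alone. Epcam had 5.57 and 6.54 in CD133-positive cells, against 18.1 and 168 in CD133-negative cells. Myc, a growth-promoting transcription factor, had a ratio of 0.47 on array 1 and -0.44 on array 2. The surface antigen gene Ly6a (Sca-1) was at 0.08 on array 1 and -1.68 on array 2. These genes were named after their values were seen.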
